A study of Mus musculus with 11 samples.

Results

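SMC1 is a subunit of cohesin, and its binding was compared between SA1-null and wild-type mouse embryonic fibroblasts by chromatin immunoprecipitation followed by sequencing (ChIP-seq). The comparison used both deposited SMC1 peak lists in full, namely 24000 wild-type and 47003 SA1-null peaks, that is 71003 of the 163094 intervals of the series. These 2 lists stood for 3 of 11 samples. The wild-type list was made from 1 library, and the SA1-null list took 2 libraries, labelled as replicates, together. The fibroblasts were primary cells from E12.5 embryos on a mixed C57BL/6 x 129 Sv background, and they were untreated in both genotypes. The labels give the genotypes as WT and SA1-null. They do not say how the null allele was made, or how many embryos or cultures were used. Both lists were called against the same input DNA, pooled over the genotypes.

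Cohesin is a ring that holds sister chromatids together after replication and extrudes chromatin loops. SMC1 and SMC3 are long coiled-coil ATPases that join at a hinge and are closed into a ring by a kleisin subunit. SA1 or SA2 binds the kleisin, so that each somatic ring carries either of them, and SMC1 is part of both forms. Many cohesin positions in mammalian cells coincide with the insulator protein CTCF, and others lie at active enhancers and promoters.

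Each list holds a chromosome, a start and an end per peak, without a height, score or p-value, and read depth is unknown here. Positions are given on mm9, and an mm9 genome or annotation was not used here, so peaks are named by coordinates and no gene is assigned. With 1 list per genotype there was no spread between replicates, and no test between genotypes was possible. Intervals in parentheses are 95% Wilson intervals for shares and exact binomial intervals for ratios, and they cover the counting of peaks in these lists alone. The antibody against SA1 gave 177 peaks in SA1-null and 26602 in wild-type cells, as a check of the genotype labels. The list names give the input of the SMC1 lists for SMC3 and SA1-null SA1, and another input for wild-type SA1 and both SA2 lists. At most 0.439% of any kind of SMC1 peak described below overlapped an input interval or an SA1-null SA1 peak.

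The wild-type SMC1 positions were mostly found again without SA1, and the SA1-null list added about as many positions of its own. A wild-type peak was counted as shared when it overlapped an SA1-null SMC1 peak by at least 1 bp, which held for 22407 peaks (93.4%), and 1593 (6.64%) were called in wild type only. Of the SA1-null peaks, 22470 (47.8%) were shared and 24533 (52.2%) were called in SA1-null cells only. In bases, 11.8 Mb lay in both lists, which was 83.3% of the wild-type and 44.0% of the SA1-null bases. The SA1-null list pools 2 libraries against 1, and the part of this pooling in its greater length was not tested. Against the widest 24000 SA1-null peaks, as many as the wild-type list holds, 61.4% of the wild-type peaks were shared.

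At shared positions the peaks corresponded closely. In 21950 cases exactly 1 wild-type peak met exactly 1 SA1-null peak, which took in 98.0% of the shared wild-type peaks. A wild-type peak met several SA1-null peaks in 205 cases, 3 at the most, and an SA1-null peak met several wild-type peaks in 141 cases. In the single pairs the centres lay a median of 45 bp apart (quartiles 21 and 79.5 bp), and 84.1% of pairs lay within 100 bp. In most single pairs the centres were therefore displaced by much less than a peak's width. Shared peaks overlap by definition, which by itself limits how far apart their centres can lie.

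SMC1 peaks at shared positions were about equally wide in both genotypes, whereas SMC3 peaks were wider in SA1-null cells. The median width over the 21950 SMC1 pairs was 586 bp in the wild-type list and 588 bp in the SA1-null list. The median difference, SA1-null minus wild type, was 8 bp (95% interval of the median 6 to 10), with quartiles of -81 and 105 bp. It was 14 bp over peaks of at least 500 bp, 16 bp with neighbours closer than 1000 bp merged and 51 bp against the widest 24000 SA1-null peaks. That last setting leaves out narrow peaks of the SA1-null list alone, which by itself raises the difference. Wider in SA1-null were 11437 pairs (52.1%) and narrower were 10451 (47.6%). Over 14871 pairs of SMC3, the partner of SMC1 in the ring, the medians were 566 and 709 bp. The median SMC3 difference was 141 bp (interval 138 to 144), and 87.3% of the pairs were wider in SA1-null cells. The SMC3 lists stand for 1 library each, and the difference between the antibodies was not tested.

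**Figure D1:**
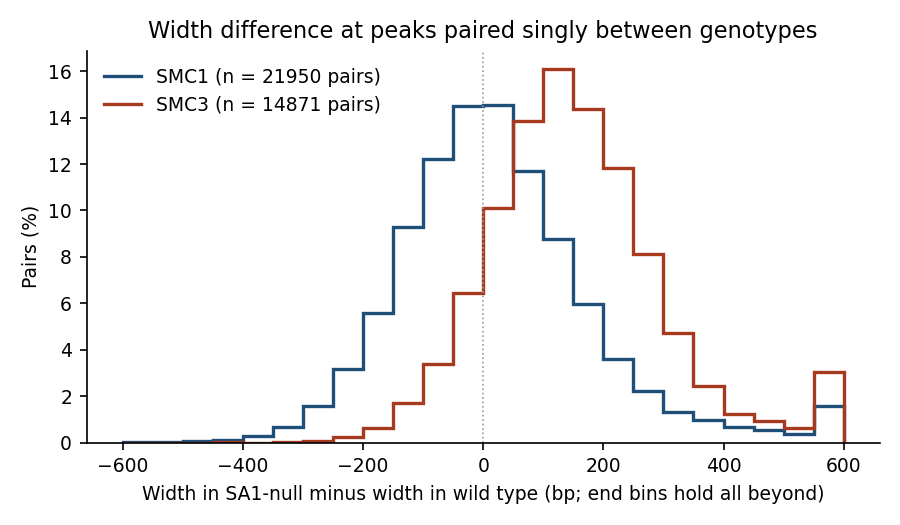
Distribution of the width in SA1-null cells minus the width in wild-type cells (bp, bins of 50 bp, the end bins holding all values beyond) over positions where exactly 1 peak met 1 peak, for SMC1 (blue) and SMC3 (red), as a percentage of pairs. The SMC1 curve is centred near 0 (median 8 bp), and the SMC3 curve lies to the right of it (median 141 bp).

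Within the SMC1 pairs, the difference was larger at positions without SA1 or SMC3 of wild-type cells. At the 16771 pairs with a wild-type SA1 peak the median difference was 1 bp, and 50.1% were wider in SA1-null cells. At the 5179 pairs without SA1 it was 35 bp, with a wild-type median of 541 bp and an SA1-null median of 570 bp, and 58.7% were wider. With a wild-type SMC3 peak the median difference was 1 bp over 14218 pairs, and without one it was 23 bp over 7732. SA2 of SA1-null cells was present at 5243 pairs, where the median difference was 0 bp, against 11 bp at the 16707 pairs without it. SMC3 of SA1-null cells ran the other way, with 9 bp at the 20773 pairs that had it and -11 bp at the 1177 that did not. The pairs without wild-type SA1 or SMC3 were also the narrower ones in wild type, with medians of 541 and 521 bp against 598 and 619 bp.

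The widest shared pairs, ranked by the narrower peak of each pair, give examples of this correspondence. The first lay at chr3:145310575-145313653 in wild type (3079 bp) and at chr3:145310002-145313197 in SA1-null cells (3196 bp). The second, at chr19:38116719-38118748 in wild type, was 2030 bp wide there and 2206 bp in SA1-null cells. These are followed by chr10:17441372-17443327, with 1956 and 2267 bp, and by chr1:164153696-164156541, with 2846 and 1840 bp. The fifth was chr8:118230823-118232654, with 1832 and 1968 bp. All 5 carried SMC3 in both genotypes, as did 64.0% of all shared wild-type peaks. Wild-type SA1 was at 3 of them, those on chromosomes 19, 10 and 1, against 76.1% of all shared wild-type peaks. SA1-null cells had the wider peak in 4 of these 5 pairs, against 52.1% of all pairs, and the pair on chromosome 1 was wider in wild type.

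The other cohesin subunits, which were immunoprecipitated separately, set shared SMC1 positions apart from those of 1 list. SMC3 of wild-type cells was present at 64.6% (63.9 to 65.2%) of the shared wild-type peaks and SMC3 of SA1-null cells at 94.6% (94.3 to 94.9%). Of the 1593 wild-type-only peaks, 103 (6.47%, 5.36 to 7.78%) had a wild-type SMC3 peak. An SMC3 peak of the SA1-null list was present at 450 of them (28.2%, 26.1 to 30.5%). SMC1 peaks called in wild type only thus met SMC3 more often in the list of the other genotype, which holds 34802 peaks against 15564. The 24533 SA1-null-only peaks had an SA1-null SMC3 peak in 41.0% of cases (40.4 to 41.6%) and a wild-type one in 2.93% (2.73 to 3.15%). In other words, 9442 of them (38.5%) lay where SMC3 was called in SA1-null cells alone, and 608 (2.48%) where it was called in both genotypes. Of the unshared peaks at least 500 bp wide, 55 of 591 in wild type had wild-type SMC3 (9.31%, 7.22 to 11.9%) and 5933 of 11105 in SA1-null cells had SA1-null SMC3 (53.4%, 52.5 to 54.4%). When peaks under 500 bp were removed from both lists before matching, so that peaks with a narrow partner also counted as unshared, these shares were 52.1% and 61.8%. Matching against the widest 24000 SA1-null peaks, which has the same effect, gave 43.6% for the wild-type-only peaks.

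Positions without a call of another cohesin subunit made up most of the unshared peaks. None of the 5 other lists (SMC3 and SA2 of both genotypes and SA1 of wild type) had a peak at 906 wild-type-only peaks (56.9%, 54.4 to 59.3%). The same held for 12890 SA1-null-only peaks (52.5%, 51.9 to 53.2%), and for 726 shared wild-type peaks (3.24%). The next most frequent pattern in both unshared kinds was SA1-null SMC3 without any SA peak, at 276 wild-type-only and 6958 SA1-null-only peaks. Among shared wild-type peaks the most frequent pattern was SMC3 of both genotypes with SA1 and without SA2, at 6465 peaks (28.9%). All 5 other lists had a peak at 2419 shared wild-type peaks (10.8%), at 17 SA1-null-only peaks and at 0 of 1593 wild-type-only peaks, which allows a share of up to 0.188%.

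**Figure D2:**
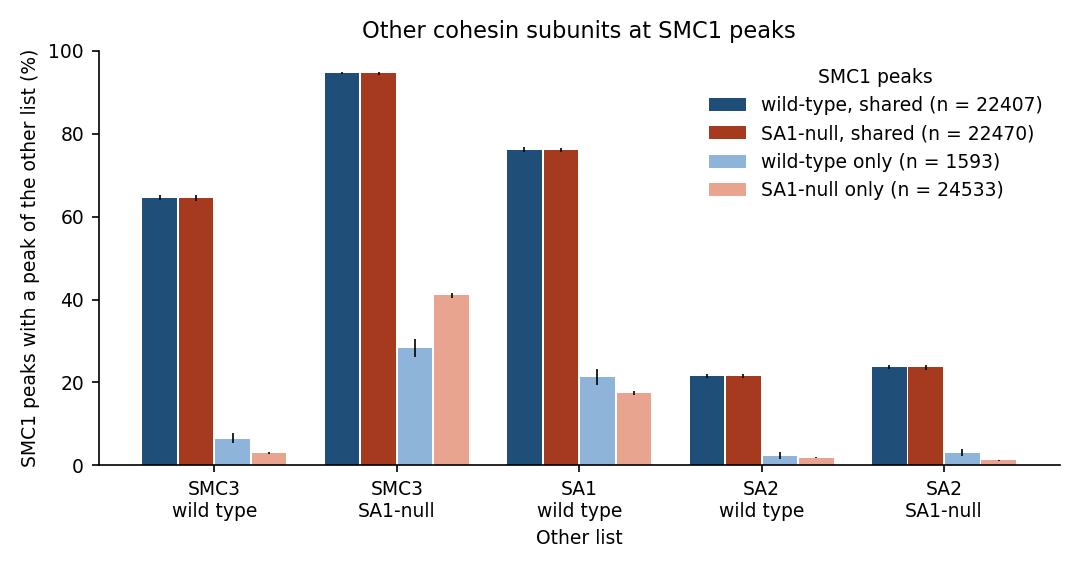
Share of SMC1 peaks (%) that overlap a peak of each other cohesin list, for shared wild-type and SA1-null peaks (dark bars) and for peaks of 1 genotype only (light bars), with 95% Wilson intervals. SA1-null SMC3 was at 94.6% of shared wild-type peaks, at 28.2% of wild-type-only and at 41.0% of SA1-null-only peaks.

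SMC3 and SA1 together sorted the wild-type peaks into a nearly complete and a less complete overlap. Wild-type SMC1 peaks with both wild-type SMC3 and SA1 were shared in 12823 of 12863 cases (99.7%, 99.6 to 99.8%), against 93.4% of all wild-type peaks. With SMC3 and no SA1, 1641 of 1704 were shared (96.3%, 95.3 to 97.1%), and with SA1 and no SMC3, 4238 of 4536 (93.4%, 92.7 to 94.1%). With neither, 3705 of 4897 were shared (75.7%, 74.4 to 76.8%). The SA1-null list spread more widely. Its peaks with SA1-null SMC3 and wild-type SA1 were shared in 85.7% (85.2 to 86.2%) of 19469 cases, those with SMC3 alone in 38.6% of 11832, those with SA1 alone in 21.7% of 1898 and those with neither in 5.85% (5.47 to 6.25%) of 13804. The share over the whole SA1-null list was 47.8%.

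Peaks of the other subunits, which were called without the SMC1 libraries, provided fixed positions at which the SMC1 lists could be read side by side. At the 15564 wild-type SMC3 peaks the wild-type SMC1 list had a peak in 93.7% (93.3 to 94.1%) and the SA1-null list in 97.6% (97.4 to 97.9%). At the 34802 SA1-null SMC3 peaks the shares were 61.9% (61.4 to 62.4%) and 88.8% (88.4 to 89.1%), the widest gap of the 5 sets at 26.9 percentage points. The gap was 14.8 points at wild-type SA1 peaks, 5.34 points at wild-type SA2 peaks and 3.75 points at SA1-null SA2 peaks. In each set the SA1-null list covered more positions. It is also the longer list, with 47003 peaks from 2 libraries against 24000 from 1. The part of this length in the gaps was not tested. Positions with a wild-type SMC1 peak and none in SA1-null cells were few in each set, from 37 of 7741 (wild-type SA2) to 432 of 34802 (SA1-null SMC3). Where wild-type SMC1 was missing, the SA1-null list had a peak at 73.8% of the SA1-null SMC3 positions, at 72.8% of the wild-type SMC3 positions and at 46.8% of the wild-type SA1 positions. At SA2 positions without wild-type SMC1 that share was lower, with 15.6% for wild-type and 29.0% for SA1-null SA2.

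**Figure D3:**
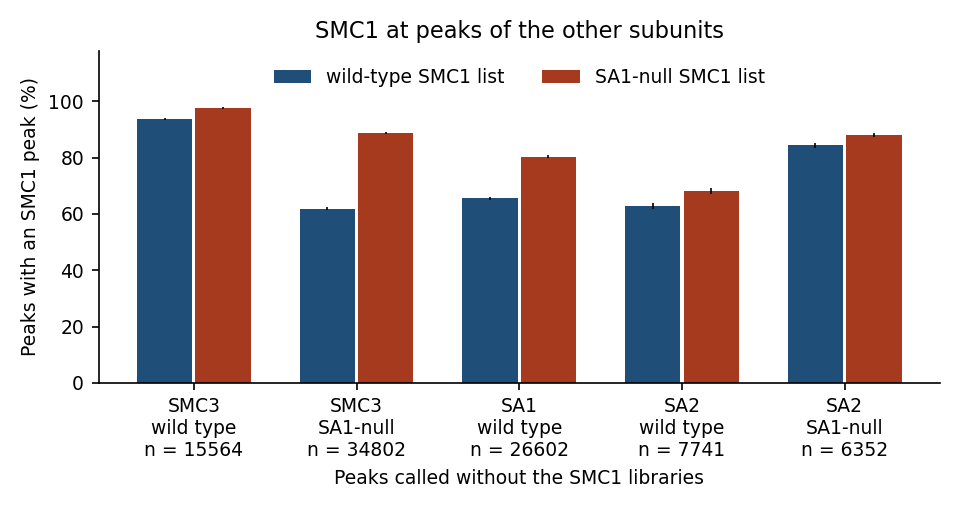
Share of the peaks of each other cohesin list (%) that overlap an SMC1 peak of wild-type (blue) or SA1-null cells (red), with 95% Wilson intervals. The SA1-null bar is the higher one in all 5 sets, with the widest gap at SA1-null SMC3 peaks (61.9 and 88.8%). The SA1-null SMC1 list holds 47003 peaks and the wild-type list 24000.

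Wider peaks were more often shared in both lists up to the eighth of 10 width classes, and the share was lower again in the widest class, by more in the SA1-null list. The classes were of about equal size. In them, the shared portion of wild-type peaks was 80.7% (79.1 to 82.3%) in the narrowest class (189 to 406 bp), 98.6% in the eighth class and 97.8% (97.1 to 98.3%) in the widest (757 to 3079 bp). In the SA1-null list it was 19.5% (18.4 to 20.6%) in the narrowest class (169 to 348 bp), 68.3% (66.9 to 69.6%) in the eighth and 57.8% (56.4 to 59.2%) in the widest (817 to 5076 bp). Median widths were 462 bp for wild-type-only and 587 bp for shared wild-type peaks, and 480 bp for SA1-null-only and 589 bp for shared SA1-null peaks.

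Among SA1-null-only peaks, wide ones mostly carried SMC3 and narrow ones mostly did not. An SA1-null SMC3 peak was present at 885 of 3768 in the narrowest class (23.5%, 22.2 to 24.9%) and at 1439 of 1993 in the widest (72.2%, 70.2 to 74.1%). Shared SA1-null peaks of the same classes had SMC3 in 78.5% and 97.4%. Wild-type SA1 ran the other way at SA1-null-only peaks, from 19.3% (18.1 to 20.6%) in the narrowest class to 13.2% (11.8 to 14.8%) in the widest, with a low of 9.64% in the ninth. SA2 of SA1-null cells was at 1.19% of the narrowest and at 4 of 1993 of the widest SA1-null-only peaks (0.201%). In shared SA1-null peaks SA2 was at 7.68% in the narrowest class and 25.7% in the widest. A wide peak spans more bases in which another peak can fall, and how much of the rise in SMC3 this gives was not tested.

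**Figure D4:**
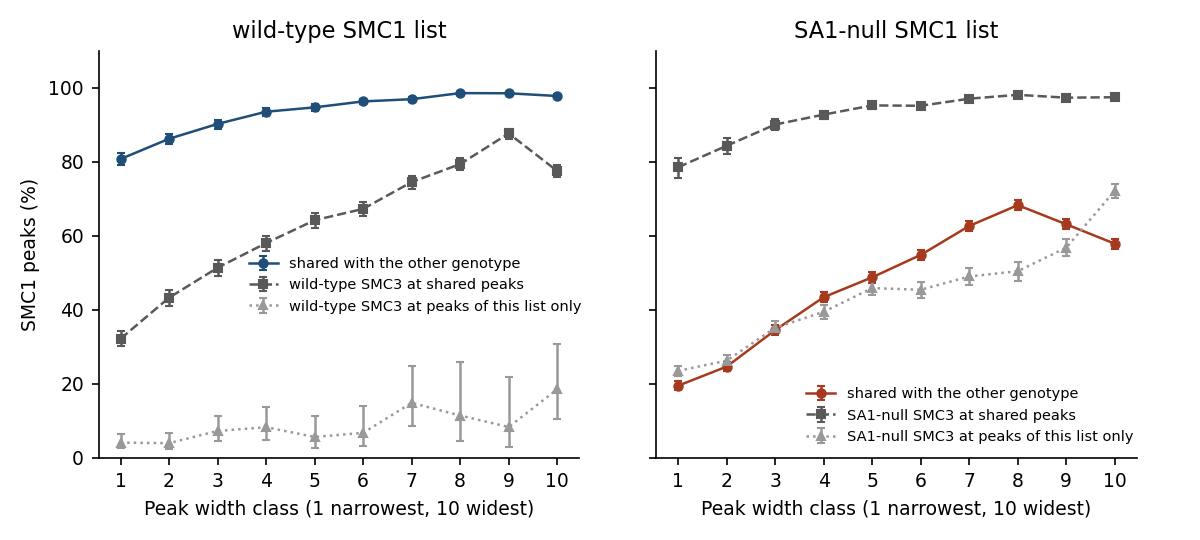
SMC1 peaks in 10 classes of width, for the wild-type list (left) and the SA1-null list (right): the share called in the other genotype (circles), and the share with an SMC3 peak of the same genotype among shared peaks (squares) and among peaks of that list only (triangles), in % with 95% Wilson intervals. In the SA1-null list the triangles climb from 23.5 to 72.2%, while the circles peak at 68.3% in class 8.

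Broad SMC1 peaks were less often unshared than SMC1 peaks of all widths, in both lists. Most of the unshared broad ones came from the SA1-null list, as did most unshared peaks over all widths (24533 against 1593). Peaks of at least 1000 bp numbered 505 in the wild-type and 1986 in the SA1-null list. Of these, 6 (1.19%, 0.546 to 2.57%) and 728 (36.7%, 34.6 to 38.8%) had no peak in the other list, against 6.64% and 52.2% over all widths. An SA1-null SMC3 peak accompanied 584 of the 728 (80.2%, 77.2 to 83.0%), and a wild-type SA1 peak 114 (15.7%). At 1500 bp or more, 65 of 293 SA1-null peaks were unshared, and 61 of the 65 had SMC3 (93.8%).

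The 5 widest SA1-null-only peaks each carried SA1-null SMC3, as did 41.0% of all such peaks and 93.8% of those of at least 1500 bp. They were chr6:117131529-117134564 (3036 bp), chr8:129356276-129358675 (2400 bp), chr2:103405761-103408022 (2262 bp), chr9:70088556-70090758 (2203 bp) and chr10:96083277-96085401 (2125 bp). The nearest wild-type peak was 7.04, 4.55, 0.301, 7.22 and 1.84 kb away in that order, and 32.9% of all SA1-null-only peaks lay within 10 kb of one. The peak on chromosome 10 also carried a wild-type SMC3 peak, and those on chromosomes 8, 2 and 10 a wild-type SA1 peak. Wild-type SMC3 was at 2.93% of all SA1-null-only peaks. Wild-type SA1 was at 17.4% of them, and at 29.2% of those of at least 1500 bp. None of the 5 carried SA2, which was at 1.84% (wild type) and 1.19% (SA1-null) of all SA1-null-only peaks.

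The 5 widest wild-type-only peaks were 1030 to 1075 bp wide. Another cohesin subunit was called at 4 of them, while 56.9% of all wild-type-only peaks had none. They were chr4:71674776-71675850 (1075 bp), chr10:9394215-9395288 (1074 bp), chr11:111765407-111766457 (1051 bp), chr13:102737068-102738116 (1049 bp) and chr14:121571329-121572358 (1030 bp). The peak on chromosome 4 lay 180.3 kb from the nearest SA1-null SMC1 peak and had no other cohesin subunit. That on chromosome 13 had SMC3 in both genotypes and an SA1-null SMC1 peak 0.106 kb away. Of the remaining peaks, those on chromosomes 11 and 14 had SA1-null SMC3, and those on chromosomes 10 and 11 had wild-type SA1. Over all wild-type-only peaks, 28.2% had SA1-null SMC3 and 21.2% had wild-type SA1.

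Few SA1-null-only peaks lay within 1 kb of a wild-type peak. Unshared peaks overlap no peak of the other list by definition, and the distances expected of unrelated positions were not computed. The median distance to the nearest SA1-null peak was 9.48 kb for wild-type-only peaks (quartiles 2.50 and 30.4 kb), and 136 of them (8.54%, 7.26 to 10.01%) were within 500 bp. For SA1-null-only peaks the median distance to the nearest wild-type peak was 20.0 kb (quartiles 6.65 and 48.1 kb), and 843 (3.44%, 3.22 to 3.67%) were within 500 bp. Within 10 kb lay 51.5% and 32.9%. The SA1-null list is the denser one, with a median gap between neighbouring peaks of 18.5 kb against 40.3 kb in wild type, so these distances cannot be compared between the kinds. Within 1 kb of a wild-type peak lay 1485 SA1-null-only peaks (6.05%).

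The SA1-null SMC1 list held more local series of peaks than the shorter wild-type list. A longer list makes more series by itself, and the lists held 47003 and 24000 peaks. A series is here a run of at least 4 peaks with gaps under 5 kb, a definition chosen after the data were seen. The SA1-null list held 660 such runs with 3069 peaks (6.53% of its peaks, 6.31 to 6.76%), and the wild-type list 67 runs with 299 peaks (1.25%, 1.11 to 1.39%). With the SA1-null list shortened to its widest 24000 peaks, it held 170 runs, 2.54 times as many as wild type (1.90 to 3.42). Its shared peaks alone, 22470 in number, made 54 runs, fewer than the 67 of the wild-type list.

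A wild-type SMC1 peak lay within 589 of the 660 SA1-null runs (89.2%), and 77 runs held 4 or more. A run holds at least 4 peaks, and 47.8% of all SA1-null peaks were shared, so a high share follows largely from this. Whether runs lie at wild-type positions more often than other peaks was not tested. SA1-null-only peaks made up 1737 of the 3069 peaks in runs (56.6%, 54.8 to 58.3%), against 51.9% of the peaks outside runs. Of the SA1-null-only peaks, 47.8% (45.5 to 50.2%) in runs and 40.4% (39.8 to 41.1%) outside runs had an SA1-null SMC3 peak. The run with most peaks, 13, extended over 26.3 kb of chromosome 18, and held 4 wild-type peaks. At chr19:5834721-5850708 there were 10 SA1-null peaks, of which 8 were SA1-null only and 9 carried SMC3, and 2 wild-type peaks. At chr19:38667589-38689436 all 9 SA1-null peaks were SA1-null only, and 1 of them carried SMC3. These runs were picked after their values were seen.

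Along the chromosomes the SA1-null list followed the wild-type one at the megabase scale. Of 2312 windows of 1 Mb with an SMC1 peak in either list, 2138 (92.5%) held more SA1-null peaks, 130 held equal numbers and 44 (1.90%) held fewer. A median window held 9 wild-type peaks (quartiles 4 and 15) and 18 SA1-null peaks (quartiles 8 and 29). Pearson's r between the lists was 0.92 and Spearman's rho 0.92 over the 2312 windows, which share the input, the mappable sequence and, in most windows, the same shared peaks. No wild-type SMC1 peak was present in 130 windows, which held 280 SA1-null peaks (0.596% of that list). Windows without wild-type SMC1 thus held few of the SA1-null peaks, but they were also only 5.62% of all windows.

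**Figure D5:**
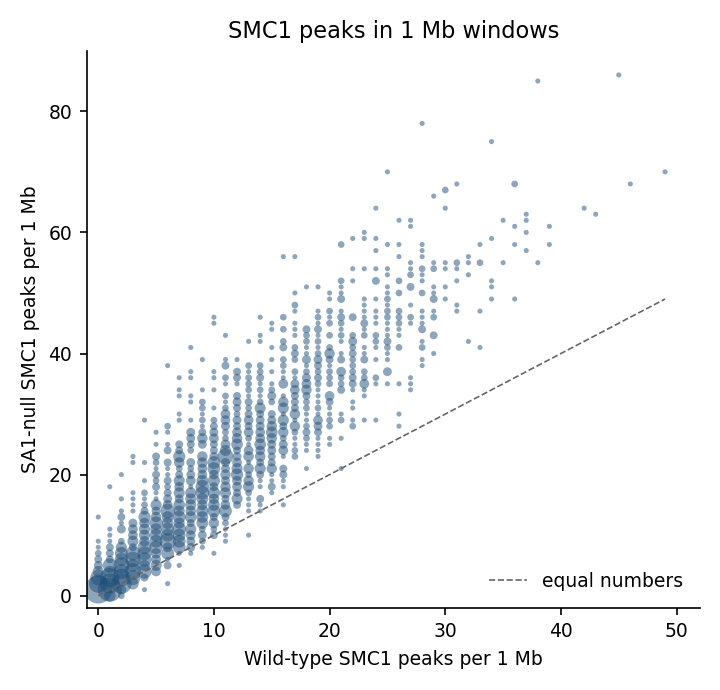
Number of SMC1 peaks per 1 Mb window in wild-type (horizontal) and SA1-null cells (vertical), with larger points for more windows at the same pair of numbers and a dashed line at equal numbers. Of 2312 windows, 2138 lie above the line and 44 below it.

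The 5 windows with the highest surplus in SA1-null cells were all rich in wild-type peaks too. Ranking by a difference in number favours such windows, since the SA1-null list was longer on every chromosome. At chr9:63000001-64000000 there were 28 wild-type and 78 SA1-null SMC1 peaks, and 13 and 52 SMC3 peaks in that order. At chr8:129000001-130000000 the SMC1 numbers were 38 and 85, and at chr2:117000001-118000000 they were 25 and 70. The windows chr2:30000001-31000000, with 34 and 75, and chr19:5000001-6000000, with 45 and 86, completed the 5. These windows held 44 to 53 SA1-null-only and 1 to 5 wild-type-only SMC1 peaks each.

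Of the 8 windows with at least 2 SA1-null peaks fewer, 5 are named here, the fifth being the first by position of those tied for that place. They were chr12:47000001-48000000, with 6 wild-type and 2 SA1-null SMC1 peaks, chr13:25000001-26000000, with 13 and 10, chr14:50000001-51000000, with 10 and 7, chr16:7000001-8000000, with 4 and 1, and chr1:128000001-129000000, with 11 and 9. SMC3 did not share this direction in 4 of them, with 5 and 8, 6 and 8, 6 and 10, and 2 and 3 wild-type and SA1-null peaks on chromosomes 13, 14, 1 and 12. In the window on chromosome 16 there was 1 SMC3 peak in each list.

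SMC1 peaks of SA1-null cells outnumbered wild-type ones by a higher ratio in windows with fewer wild-type SA1 peaks. In windows with 18 or more SA1 peaks there were 9597 wild-type and 17890 SA1-null SMC1 peaks, a ratio of 1.86 (1.82 to 1.91). With 12 to 17 the ratio was 1.996 (1.94 to 2.05), and with 8 to 11 it was 2.002 (1.93 to 2.08). With 4 to 7 SA1 peaks the numbers were 1872 and 3963, a ratio of 2.12 (2.003 to 2.24), and with 1 to 3 they were 369 and 836, a ratio of 2.27 (2.002 to 2.57). The 38 windows without SA1 held 18 and 47, a ratio of 2.61 (1.49 to 4.78). SA1-null-only peaks were 49.03% of the SA1-null SMC1 peaks in the windows richest in SA1 and 63.3% where there were 1 to 3 SA1 peaks. The SMC3 ratio was 2.19 (2.13 to 2.26) and 2.37 (2.02 to 2.79) in these windows. With 4 to 7 SA1 peaks the SMC3 ratio was 2.48 (2.32 to 2.66), above that with 1 to 3. Without SA1 it was 4.67 (1.90 to 13.8), from 6 and 28 peaks. Of the wild-type SA1 peaks, 65.6% had a wild-type SMC1 peak, so windows sorted by SA1 are also sorted by wild-type SMC1. How much this raises the SMC1 ratio by itself was not tested.

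Chromosomes differed little in SMC1 overlap. The shared portion of wild-type peaks was 93.3% ± 0.917 (SD over 19 autosomes), from 91.9% on chromosome 14 to 95.7% (94.6 to 96.6%) on chromosome 7, and 91.1% (88.3 to 93.4%) on X. SA1-null-only peaks were 52.3% ± 1.93 of the SA1-null list (SD over the autosomes), from 49.5% (46.9 to 52.1%) on chromosome 19 to 57.3% (55.2 to 59.3%) on chromosome 13, and 51.3% on X. Chromosome 13 had 1036 wild-type and 2251 SA1-null SMC1 peaks, a ratio of 2.17 (2.02 to 2.34), and its SMC3 ratio, 2.37, was also the highest among autosomes. Chromosome 19 had the lowest autosomal ratio for both antibodies, with 1.82 (1.67 to 1.995) for SMC1 and 1.99 for SMC3. On X the SMC1 ratio, 1.87 (1.67 to 2.09), was within the autosomal range, while the SMC3 ratio of 2.54 (2.21 to 2.93) lay above it.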

How the data were processed

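ChIP-seq of SMC1 in wild-type and SA1-null fibroblasts was compared through the peak lists the authors deposited, each with 3 columns (chromosome, start, end). The libraries held fragments of 100 to 200 bp amplified with 14 PCR cycles, per the labels' protocols. CASAVA 1.7 and mm9 are named in the submitters' processing notes, while the aligner and caller were not stated in these sources. Names of the deposited lists give a false discovery rate of 10, read as percent, with no minimum fold, and pool 2 replicates for SA1-null SMC1. The list length depends on depth and enrichment, and depth is unknown.

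Starts, taken as 0-based in the files, were raised by 1 for print. Overlaps, gaps, runs and 1 Mb windows (by peak centre) were computed with Python 3.11.15, numpy 2.4.6 and scipy 1.17.1, and figures with matplotlib 3.10.9. The code was tested on simulated data, and its overlap counts equalled those of bedtools 2.31.1 for 20 ordered pairs of lists. Named items are the 5 widest peaks of each kind and the 5 windows at each end, the runs being an addition. The members, lists and definitions were chosen with earlier results of these data known. The gene table at hand has another build and was not used.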

Additional observations from a re-analysis of the deposited data

How the results depend on the processing

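Of 40 alternatives, 22 left the value within its counting interval, among them every one run without chromosome X or without input and SA1-null SA1 intervals. With the SA1-null SMC1 list shortened to its widest 24000 peaks (531 bp or more), 61.4% of wild-type peaks were shared and 38.9% of SA1-null peaks were unshared. The median width difference was then 51 bp, 33.5% of the SA1-null-only peaks lay within 10 kb of a wild-type peak, 54.8% of them had SA1-null SMC3, and 43.6% of the wild-type-only peaks had wild-type SMC3. That setting removes narrow SA1-null partners, so that wild-type peaks matched by them in the full list count as unshared, as does the next one. The shortened list also raises the width difference by itself, since only SA1-null peaks are filtered by width. With SMC1 peaks of at least 500 bp in both lists, the same values were 78.7%, 51.0%, 14 bp, 27.3%, 61.8% and 52.1%, and the ratio of peak numbers, 1.96 over all peaks, was 1.61. With peaks closer than 1000 bp merged, the ratio was 1.88, the unshared portion of SA1-null peaks 50.4%, the median width difference 16 bp and the share within 10 kb 28.2%. When overlaps had to reach 50% of the shorter peak, 40.0% of SA1-null-only peaks had SA1-null SMC3.

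The ratio of runs, 9.85 as reported, was 9.27 with gaps under 2 kb and 2.54 with the shortened SA1-null list. With shared SA1-null peaks alone it was 0.806 (0.553 to 1.17), an interval that includes 1. These 3 alternatives were chosen once the data had been seen. Alternatives that leave out a replicate or use a stricter score were not run, since the SA1-null list takes its replicates together and the lists hold no score. No paired analysis was possible because the wild-type group has 1 sample and the SA1-null replicates share 1 list.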
